A study of Astyanax mexicanus with 6 samples.

Results

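Shared regions of constant width are stretches of liver chromatin that were open in all 3 forms of the Mexican tetra, Astyanax mexicanus, under a peak of nearly the same width in each form. They were chosen by measured peak width. Overlapping or touching peaks of the 3 peak lists were merged into union regions. A region was kept if it lay on 1 of 25 chromosomes, was under 2000 bp long, held exactly 1 peak of each list and had a widest peak at most 25% wider than its narrowest. Of 110214 union regions, 11971 met these conditions (10.9%). Chromosomes held 75330 regions, of which 32629 had peaks of all 3 lists, 30589 had exactly 1 peak of each, and 29579 of these were under 2000 bp. Regions of constant width were thus 40.5% of the 29579 (Wilson 95% interval 39.9 to 41.0), and the other 17608 are called regions of unequal width below. Shares of all regions with 1 peak of each list refer below to the 29579 under 2000 bp.

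The livers came from Pachon cave fish, Tinaja cave fish and Surface fish, with 2 samples per form by the labels and 1 deposited peak list per form. No treatment is named, and the labels give neither age nor sex of the fish. Nor do they say whether a list rests on 1 sample or on both, so every difference below is one between 3 lists, without replicate error, and forms were not tested against each other. The lists held 72521 peaks for Pachon, 84653 for Tinaja and 73380 for Surface, and as they hold no counts of reads, sequencing depth is unknown. The regions took up 23.9% of the chromosomal peaks of Pachon, 20.6% of those of Tinaja and 23.5% of those of Surface. No genome build is named, so positions are those of the lists, counted from 1, no sequence is shown and no gene or promoter is assigned. The liver label could therefore not be checked against marker genes.

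As background, open chromatin is DNA from which regulatory proteins have displaced nucleosomes. In vertebrates it is found at promoters, at insulators bound by CTCF and at distal enhancers. Promoters and insulators tend to be open in many cell types, whereas enhancers differ more between tissues; in liver many enhancers carry sites for hepatocyte factors such as HNF4A, FOXA and CEBPA. In ATAC-seq the Tn5 transposase cuts such DNA, and the width of a peak reflects both the length of the open stretch and how many fragments rose above the caller's threshold.

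Peaks in regions of constant width had much the same widths in all 3 lists, as the rule requires. Median width was 693 bp in Pachon (interquartile range 490 to 960.5), 705 bp in Tinaja (496 to 979) and 707 bp in Surface (492 to 995). The peaks covered 9.13 Mb in Pachon, 9.28 Mb in Tinaja and 9.32 Mb in Surface. In regions of unequal width the medians were 505 bp in Pachon, 565 bp in Tinaja and 592 bp in Surface. The union of the 3 peaks had a median length of 767 bp in regions of constant width and 733 bp in those of unequal width. These widths chose the regions and are given as a description.

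Counts of widths had local highs, each a bin with more peaks than the bin on either side. They were sought only in bins under 1000 bp. Wider bins held small highs too, such as 222 Surface peaks from 1250 to under 1300 bp in regions of constant width, against 214 and 202 in the bins beside it. Counting error was not weighed in picking these bins. In bins of 50 bp, the widths in regions of constant width had a local high from 250 to under 300 bp in each list, with 534 peaks in Pachon, 484 in Tinaja and 513 in Surface. The narrowest peaks of the lists measured 212 to 226 bp, so the bin below this high could fill only in part. A second high lay from 450 to under 500 bp, with 834 peaks in Pachon, 901 in Tinaja and 791 in Surface. The third lay from 650 to under 700 bp in Pachon (790 peaks) and Surface (742 peaks) and from 600 to under 650 bp in Tinaja (752 peaks). Among these 3, successive highs were separated by 150 to 200 bp, but the place of the third is uncertain and no regular spacing is read. In Tinaja the bin from 650 to under 700 bp held 750 peaks, and in Surface that from 600 to under 650 bp held 724. Regions of unequal width had highs at 250 to under 300 bp in all 3 lists too. Their next highs lay at 400 to under 450 bp in Pachon and Surface and at 450 to under 500 bp in Tinaja, so local highs were not limited to regions of constant width.

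**Figure D1:**
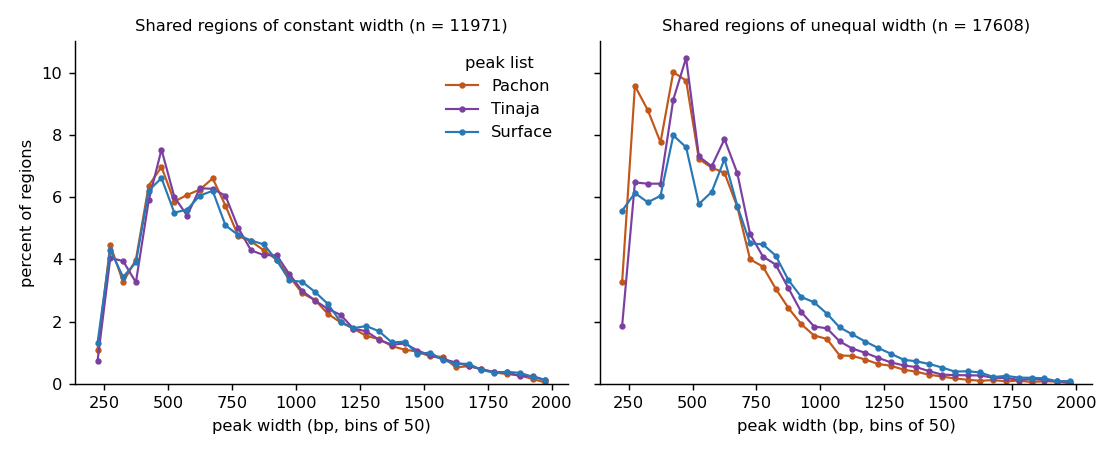
Peak width in bp, in bins of 50 bp, against the percentage of regions, with 1 line per peak list, for the 11971 regions of constant width on the left and the 17608 of unequal width on the right. On the left the lines lie close together with highs at 250 to under 300 bp and 450 to under 500 bp. On the right the Surface list has more of the wide peaks and the Pachon list more of those from 250 to under 350 bp. Surface also has the most peaks under 250 bp there, 5.56% against 3.25% in Pachon and 1.85% in Tinaja.

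The order of the 3 widths within a region was mixed; the rule used these widths, so nothing is read from the shares. Pachon had the narrowest peak in 4651 regions of constant width (38.9%), against 41.5% of all regions with 1 peak of each list. Surface had the widest peak in 4483 (37.4%), against 43.8% of all regions with 1 peak of each list. Surface also had the narrowest peak in 4202 (35.1%), against 32.2% of all. Tinaja had the widest peak in 4289 (35.8%), against 34% of all, and the narrowest in 2917 (24.4%), against 25.4%. Surface lay between the caves in 3057 (25.5%), against 23% of all. On the log2 scale, Pachon over Surface had a median width ratio of -0.014 with an SD over regions of 0.14. Tinaja over Surface had 0.0065 with an SD of 0.14, and Pachon over Tinaja had -0.016 with an SD of 0.12. The 3 pairs share lists and are given side by side.

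The limit of 25% cut through a continuous distribution. In 2536 of the 29579 regions the widest peak was at most 5% wider than the narrowest, and in 2880 it was over 5% and up to 10% wider. Counts then fell step by step to 1947 over 20% and up to 25%, 1779 just above the limit, up to 30%, and 1567 in the next step, up to 35%. Just inside the limit, at 25%, was a region of chromosome 2, positions 28200620 to 28202454, with widths of 1468 bp in Pachon, 1835 bp in Tinaja and 1588 bp in Surface. At the same 25% were regions of 588, 637 and 735 bp in Pachon, Tinaja and Surface on chromosome 4 (positions 16019633 to 16020384) and of 330, 335 and 268 bp in the same order on chromosome 6 (13456984 to 13457337). Just outside it, at 25.03%, was a region of chromosome 1, positions 25551154 to 25552079, with 919 bp in Pachon, 890 bp in Tinaja and 735 bp in Surface. The next outside were on chromosome 23 (15748385 to 15749258), with 699, 874 and 826 bp in Pachon, Tinaja and Surface, and on chromosome 6 (18927379 to 18928283), with 809, 802 and 647 bp.

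The rule set no limit on the distance between peak centres. Position still entered it, since only overlapping or touching peaks were merged and the length of a region was limited. Some closeness of the 3 peaks of a region therefore follows from the rule, and the distances are given as a description. The outermost of the 3 peak centres were a median of 38.5 bp apart in regions of constant width (interquartile range 17.5 to 75.5) and 108.75 bp apart in those of unequal width (73 to 180). As a percentage of the mean width the medians were 5.65% and 19.95%. All 3 centres lay within 25 bp in 4342 regions of constant width (36.3%) and in 688 of unequal width (3.91%), against 17% of all regions with 1 peak of each list. A region with unequal edges tends to differ in width and in centre at once, so these distances are not independent of the rule.

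**Figure D2:**
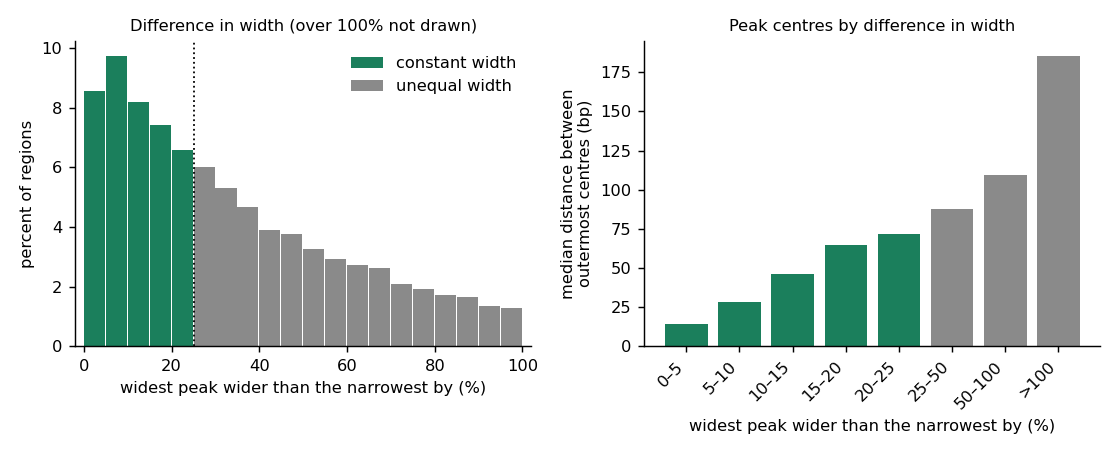
Left, by how many percent the widest of the 3 peaks is wider than the narrowest, in steps of 5%. The vertical axis is the percentage of the 29579 regions with 1 peak of each list and under 2000 bp. The dotted line is the limit of 25%. Right, the median distance in bp between the outermost peak centres in classes of that difference, from 14.5 bp at up to 5% to 185.5 bp at over 100%, growing on both sides of the limit.

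Among the regions of constant width themselves, centres lay closer the more equal the widths were. Widths and centres come from the same starts and ends, so this trend is given as a description. The median distance between the outermost centres was 14.5 bp where the widest peak was up to 5% wider than the narrowest, 28 bp up to 10%, 46.25 bp up to 15%, 64.5 bp up to 20% and 72 bp up to 25%. It was 87.5 bp over 25% and up to 50%, so the distance grew on both sides of the limit. Median peak width, taken over the 3 lists, did not fall steadily over the same classes. It was 779 bp up to 5%, 678 bp up to 10%, 684 bp up to 15%, 705.5 bp up to 20% and 659 bp up to 25%.

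The starts and ends of the peaks define the widths that the rule used, so their ranges are given as a description. The range of the 3 starts had a median of 39 bp and that of the 3 ends 38 bp in regions of constant width, against 152 bp for each in those of unequal width. Of all edges of constant-width regions, starts and ends together, 28.9% agreed to under 20 bp and 21.5% fell between 20 and under 40 bp, and the share then fell in every further step of 20 bp up to 400 bp. Edges in regions of unequal width had a second high from 140 to under 180 bp, with 7.37% from 140 to under 160 bp and 7.34% from 160 to under 180 bp. For constant width those steps held 4.00% and 3.01% of the edges. The limit on width restricts how far 1 edge alone can range, so nothing is read from this difference between the sets. In 1216 regions of constant width (10.2%) and 3242 of unequal width (18.4%), or 15.1% of all regions with 1 peak of each list, 1 edge was within 20 bp in all lists while the other ranged over more than 100 bp.

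**Figure D3:**
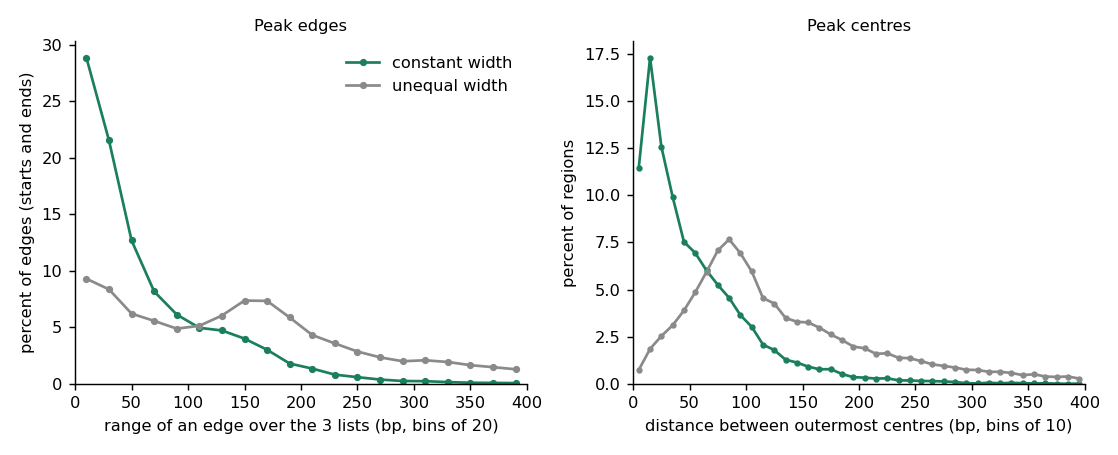
Left, the range of a peak edge over the 3 lists, in bins of 20 bp, against the percentage of all starts and ends; right, the distance between the outermost of the 3 peak centres, in bins of 10 bp, against the percentage of regions, each for regions of constant and of unequal width. Edges of constant-width regions fall steadily from 28.9% in the first bin, and those of unequal width rise again between 140 and 180 bp; values of 400 bp or more are not drawn.

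Both edges agreed to within 20 bp in all 3 lists in 1258 regions of constant width (10.5%), against 4.25% of all regions with 1 peak of each list. The narrowest peaks of the lists measured 221 bp in Pachon, 226 bp in Tinaja and 212 bp in Surface, so edges this close keep the widths within the limit, and the count for unequal width, 0, follows from the rule. Starts were identical in all lists in 126 regions of constant width (1.05%) and in 45 of unequal width (0.256%). Ends were identical in 113 of constant width (0.944%) and in 51 of unequal width (0.290%). Edges define the widths that the rule used, so nothing is read from these differences. Start and end were both identical in 2 regions of constant width. On chromosome 3, positions 314405 to 314898, each list had the same peak of 494 bp. On chromosome 8, positions 18506498 to 18507076, each had the same peak of 579 bp. Another region, on chromosome 9 at positions 26425098 to 26425566, had a width of 440 bp in every list, but its Surface peak began and ended 29 bp to the right of the cave peaks.

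Equal width did not always mean equal place. In 1745 regions of constant width (14.6%) the outermost centres were over 100 bp apart, against 38.7% of all regions with 1 peak of each list. The largest distance, 768.5 bp, was on chromosome 12, positions 25982599 to 25984443, where the Pachon peak ran from 25983412 to 25984443, the Tinaja peak from 25982599 to 25983719 and the Surface peak from 25982746 to 25984012. The Pachon peak stood apart to the right of the other two. On chromosome 15, positions 27720679 to 27721767, the distance was 506.5 bp, with widths of 500 bp in Pachon, 625 bp in Tinaja and 540 bp in Surface, and the Tinaja peak lay leftmost. On chromosome 18, positions 21858377 to 21859682, it was 498 bp, with widths of 943, 760 and 856 bp in Pachon, Tinaja and Surface. Distances of 468 and 461.5 bp were found on chromosome 9, at positions 18307546 to 18309290 and 20947154 to 20949056, and in both the Pachon peak began to the left of the others.

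In 3 regions of constant width (0.0251%) no base was common to all 3 peaks, against 111 of unequal width (0.630%). The places of the peaks are not independent of the rule, so nothing is read from this difference. The 3 regions of constant width were singled out after their values were seen. On chromosome 14, positions 34983890 to 34984517, widths were 278 bp in Pachon, 302 bp in Tinaja and 268 bp in Surface, and the Pachon peak bridged the other two. On chromosome 9, positions 21217525 to 21218136, the Surface peak of 300 bp bridged a Pachon peak of 257 bp and a Tinaja peak of 294 bp. The third, on chromosome 23 at positions 22124238 to 22124782, had widths of 258 bp in Pachon, 251 bp in Tinaja and 296 bp in Surface. Over all regions of constant width, the bases common to the 3 peaks made up a median of 86.3% of the union, or 8.49 Mb in all.

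Peak centres of the 2 cave lists lay closer to each other than to those of Surface. In regions of constant width the centres were a median of 15.5 bp apart between Pachon and Tinaja (interquartile range 6 to 38.5), 21.5 bp between Tinaja and Surface (8.5 to 54) and 24.5 bp between Pachon and Surface (9.5 to 57.5). Pachon and Tinaja had both edges within 10 bp of each other in 2044 regions (17.1%), Tinaja and Surface in 1374 (11.5%), and Pachon and Surface in 1179 (9.85%). Over all regions with 1 peak of each list these shares were 9.64%, 5.68% and 4.74%. Edges define the widths that the rule used, so the higher shares in regions of constant width follow in part from the rule. In regions of unequal width the median centre distances were 57.5 bp between Pachon and Tinaja, 76 bp between Tinaja and Surface and 78 bp between Pachon and Surface, the same order of pairs. The 3 pairs share lists, so these values are given side by side and not tested. In regions of constant width the median of the signed centre shift was 0 bp in each pair, so by the median no list was displaced to 1 side. In regions of unequal width it was 0.5 bp for Tinaja minus Surface and 0 bp in the other pairs.

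Counted by region, the caves were the closest pair of centres in 5191 regions of constant width (43.4%), Tinaja and Surface in 3613 (30.2%) and Pachon and Surface in 3016 (25.2%), with 151 ties. Among all regions with 1 peak of each list the caves were closest in 43.6%, so the share in regions of constant width lay near that of all. The caves were the most frequent closest pair on all 25 chromosomes, with shares from 38.3% on chromosome 23 to 48.6% on chromosome 2. In regions of constant width under 500 bp the share was 39.6% (Wilson 95% interval 37.7 to 41.6), from 500 to under 1000 bp it was 43.7% (42.4 to 44.9) and from 1000 bp upwards 45.5% (43.8 to 47.1). Shares by length and by chromosome are not given for all regions with 1 peak of each list. Neither is therefore read as particular to constant width.

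Constant width was commonest among the shortest and the longest regions. Union length comes from the same starts and ends as the widths, so these shares are given as a description. A limit in percent also allows more bp of difference in longer regions. Under 300 bp of union length, 375 of 426 regions were of constant width (88.0%, Wilson 95% interval 84.6 to 90.8), but there the lists' narrowest peaks of 212 to 226 bp leave little room to differ. The share fell to 31.4% (30.1 to 32.8) from 600 to under 700 bp and then grew to 43.8% (42.1 to 45.5) from 1000 to under 1200 bp and 49.7% (47.3 to 52.2) from 1500 to under 2000 bp. Wilson intervals here and below cover counting error only, and neighbouring regions need not be independent. All 3 peaks were under 300 bp wide in 454 regions of constant width (3.79%) and in 71 of unequal width (0.403%), or 1.77% of all regions with 1 peak of each list.

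The 5 longest regions of constant width lay just under the length limit. On chromosome 7, positions 6157918 to 6159913, widths were 1994 bp in Pachon, 1993 bp in Tinaja and 1954 bp in Surface, and the centres were within 22.5 bp. On chromosome 20, positions 4420048 to 4422043, they were 1684, 1894 and 1974 bp in Pachon, Tinaja and Surface. Widths on chromosome 17, positions 24839809 to 24841803, were 1985, 1941 and 1779 bp in the same lists. The remaining 2 were on chromosome 9 (31812041 to 31814034), with 1674, 1721 and 1994 bp, and on chromosome 2 (5988112 to 5990102), with 1745, 1604 and 1900 bp. Surface was the widest in 3 of these 5 regions and Pachon in the other 2.

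The region nearest to a region of constant width was open in all 3 lists more often than around other regions, a difference between counts that was not tested. This held for 6414 of 11971 regions of constant width (53.6%, Wilson 95% interval 52.7 to 54.5) and 8501 of 17608 of unequal width (48.3%, 47.5 to 49.0), against 42.9% of all chromosomal regions. The share fell as widths became less equal, from 55.7% (53.7 to 57.6) up to 5% to 50.9% (48.7 to 53.1) over 20% and up to 25%. Just outside the limit, over 25% and up to 50%, it was nearly the same, at 50.7% (49.5 to 51.9). Further out it was 48.4% (47.1 to 49.6) over 50% and up to 100%, and 44.2% (42.7 to 45.7) over 100%. It was higher for constant than for unequal width in all 10 length classes. The intervals of constant and unequal width overlapped in 5 of these classes and lay apart in the other 5. In the class under 300 bp the values were 58.4% (53.4 to 63.3) and 54.9% (41.4 to 67.7), from 600 to under 700 bp they were 53.7% (51.0 to 56.3) and 51.1% (49.3 to 52.9), and from 1500 to under 2000 bp 52.5% (49.0 to 56.0) and 44.8% (41.4 to 48.3).

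**Figure D4:**
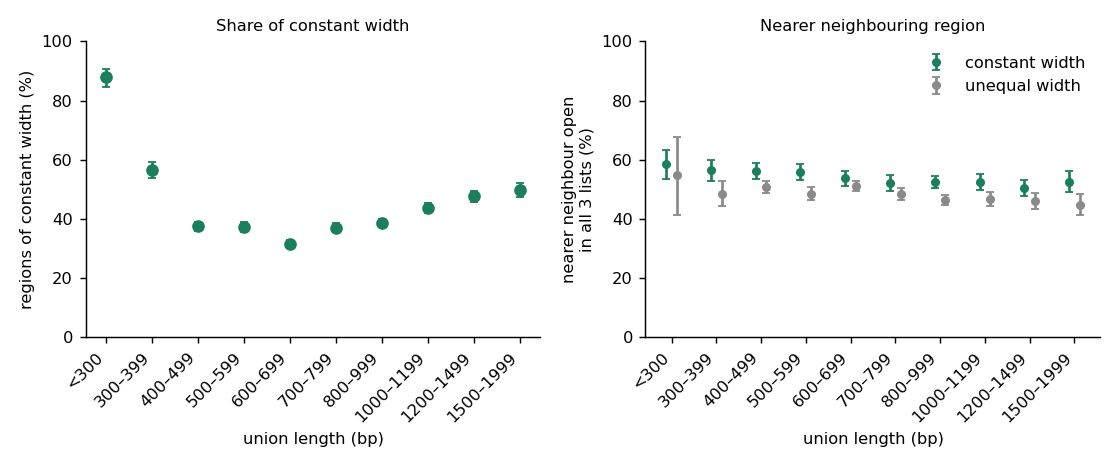
Left, the percentage of regions that are of constant width, by union length in bp; right, the percentage whose nearer neighbouring region has peaks of all 3 lists, for regions of constant and of unequal width in the same length classes. Points are shares and bars Wilson 95% intervals: the share of constant width is lowest, at 31.4%, from 600 to under 700 bp, and the neighbour share is higher for constant width in all 10 classes, with overlapping intervals in 5.

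The other neighbours, held by 1 or 2 lists, numbered 5557 for regions of constant width, 9107 for those of unequal width and 42995 for all chromosomal regions. Of these, Tinaja-only regions made up 22.2% for constant width (Wilson 95% interval 21.1 to 23.3), 22.5% for unequal width and 26.7% for all. Surface-only regions made up 29.7% for constant width (28.5 to 30.9), 27.1% for unequal width (26.2 to 28.1) and 24.1% for all. Regions of both caves only made up 14.8% for constant width, 16.3% for unequal width and 17.8% for all, and Pachon-only regions 10.8%, 12.4% and 13.0% of the same 3 sets. Neighbours of Tinaja and Surface only made up 15.0%, 13.6% and 11.5%, and those of Pachon and Surface only 7.52%, 8.05% and 6.84%. These shares leave out neighbours held by all 3 lists, whose share differs between the sets. Over all nearer neighbours, Surface-only regions made up 13.8% for constant width, 14.0% for unequal width and 13.8% for all. No excess of Surface-only neighbours is therefore read. Tinaja-only regions made up 10.3%, 11.6% and 15.3% there, and those of Tinaja and Surface only 6.97%, 7.04% and 6.57%. Regions open in all 3 lists stood on both sides of 3291 regions of constant width (27.5%), against 24.5% for unequal width and 20.7% of all chromosomal regions. The median gap to the nearer region was 2960 bp for constant width, 2534 bp for unequal width and 2793 bp for all. It was longer for constant than for unequal width in 7 of 10 length classes and shorter in the 3 from 300 to under 600 bp.

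Regions of constant width made up 15.9% of all chromosomal regions. Of the 11971, 7407 (61.9%) had no region of constant width as next neighbour on either side, 3092 (25.8%) stood in pairs and 1035 (8.65%) in runs of 3. Such counts are not given for regions of unequal width, so no clustering is read from them. Where 2 neighbouring regions each had 1 peak of every list and were under 2000 bp, the neighbour of a region of constant width was itself of constant width in 44.9% of cases (Wilson 95% interval 43.9 to 45.8). Next to a region of unequal width it was so in 41.1% (40.3 to 41.9), and over all such neighbours it was so in 42.7%. Each pair of neighbours was counted from both of its sides, so these intervals are too narrow. The median gap between successive regions of constant width was 33.6 kb (interquartile range 11.9 to 86.3 kb).

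The longest run held 9 regions on chromosome 24, positions 37267182 to 37317184, over 50003 bp. The next longest held 7. Peaks in the run were 391 to 1109 bp wide, with a widest peak 6.17% to 22.8% wider than the narrowest and outermost centres 16.5 to 133 bp apart. Its first region measured 391 bp in Pachon, 425 bp in Tinaja and 410 bp in Surface. The fourth, at positions 37287101 to 37288135, was the least equal, with 835 bp in Pachon, 1025 bp in Tinaja and 840 bp in Surface. The seventh, at 37307644 to 37308607, was the most equal, with 892, 911 and 947 bp. Gaps between regions of the run ranged from 387 to 12859 bp.

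**Figure D5:**
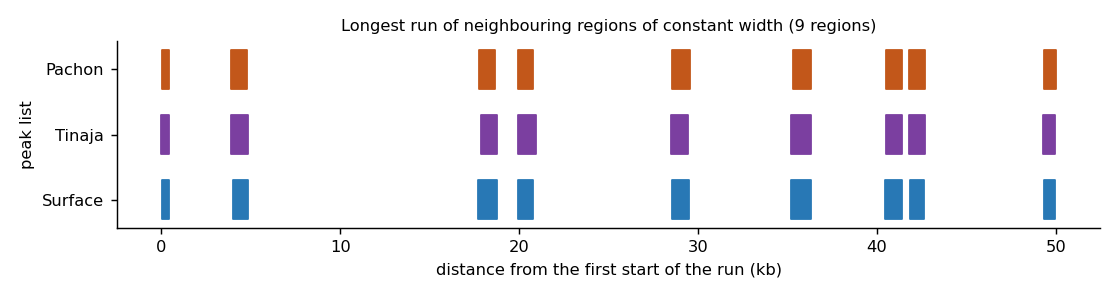
The 9 regions of the longest run, drawn to scale as the peaks of each list against the distance in kb from the first start of the run. Each of the 9 regions holds overlapping peaks of the Pachon, Tinaja and Surface lists, with outermost centres 16.5 to 133 bp apart, over 50003 bp.

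Regions of constant width lay on all chromosomes and made up similar shares of the regions with 1 peak of each list. Their number ranged from 143 on chromosome 11 to 1037 on chromosome 3. As a share of the regions with 1 peak of each list they ranged from 37.2% on chromosome 5 (459 of 1233, Wilson 95% interval 34.6 to 40.0) to 43.3% on chromosome 13 (594 of 1371, 40.7 to 46.0). The interval held the value of 40.5% for all chromosomes together on 23 of 25 chromosomes. Per Mb up to the last peak, there were 8.96 on chromosome 21 and 14.9 on chromosome 8, the lowest and the highest. Regions of any kind differed too, with 1298 up to 21.6 Mb on chromosome 21 and 2412 up to 27.1 Mb on chromosome 8. Of these, 14.9% and 16.8% were of constant width. From the first to the last of 5 equal stretches of their length, chromosomes had shares of 41.4%, 39.7%, 40.0%, 41.4% and 40.0%, with overlapping Wilson intervals. The median distance between the outermost centres ranged from 31.5 bp on chromosome 11 to 46.25 bp on chromosome 17.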

How the data were processed

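ATAC-seq libraries came from livers of 6 samples, 2 per form. About 70000 nuclei per reaction were tagmented for 22 to 24 min, per the labels' protocols. Listed in the submitters' processing notes, without roles, are bcl2fastq 2.20, Bowtie2, SAMtools and the peak caller MACS2. Settings, thresholds, Tn5 shift, duplicate handling, pooling and genome build: not given in the sources used here. The authors deposited 1 list per form with the start and end of each peak in bp. The deposited score was 0 for every peak, so peaks could not be ranked by strength.

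Union regions, widths, centres, edges and neighbours were computed in Python 3.11.15 with scipy 1.17.1, pandas 2.3.3 and numpy 2.4.6. The merging into regions, the width rule and the centre distances were tested on simulated data, but edges and neighbours were not. The nearer neighbour is the closest union region on the same chromosome. Wilson 95% intervals cover counting error only. No test between forms was made, with 1 list each. The regions, measures and limits were chosen with earlier results of these data known. Regions named by position are the 5 longest, the 3 most equal in width, 3 on each side of the width limit, up to 5 with identical edges, the 5 largest centre distances and the longest run; the 3 without a common base were added later. The planned gene lists were not used, since no annotation of the lists' build was at hand. Alternatives varied the width limit, length limit, scaffolds, overlap, merging, minimum width and list length.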

Additional observations from a re-analysis of the deposited data

Results flagged for a closer look

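Relative to Surface, the median of the log2 width ratios taken region by region was below 0 in Pachon, at -0.014, and above 0 in Tinaja, at 0.0065, in regions of constant width. The median widths themselves were 693 bp in Pachon and 705 bp in Tinaja, both below the 707 bp of Surface. With 1 list per form this difference was not tested, and both comparisons share the Surface list and the widths that chose the regions. Unplaced scaffolds, outside the chromosomes, held 4415 regions that met the other conditions, out of 11355 with 1 peak of each list and under 2000 bp there (38.9%, Wilson 95% interval 38.0 to 39.8). Their outermost centres were a median of 37.5 bp apart.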

How the results depend on the processing

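The number of regions, 11971, kept within 1.5 times under 7 of 9 alternatives, with 8519 to 16386, and the rest moved it by construction. With a width limit of 10% in place of 25% there were 5416 regions (18.3% of those with 1 peak of each list), with a median Surface width of 723 bp, a median centre distance of 20 bp and a nearer neighbour open in all lists in 55.1%. With a limit of 50% the same values were 18965, 64.1%, 667 bp, 59 bp and 52.5%. Under 1000 bp of union length the share was 38.5%, the width 590 bp and the distance 31 bp; without a length limit the width was 728 bp. With scaffolds included the neighbour share was 52.5%. Where each pair of peaks had to overlap by 50% of both, the share was 48.7%. With peaks of at least 300 bp only, the share was 45.6%, the width 741 bp, the distance 41 bp and the neighbour share 51.6%. With equal numbers of widest peaks these were 41.3%, 728 bp, 40 bp and 52.3%. Merging peaks within 200 bp moved none of the 5 values beyond its limit, which was 1.5 times for the number of regions and the counting interval for the others. Under all 9 alternatives the neighbour share was higher and the centre distance lower for constant than for unequal width. The centre distance is not independent of the widths, so nothing is read from its direction. No paired analysis was possible because each form has 1 list, which also leaves no replicate to drop. Depth is unknown, so how far depth sets a peak's width was not tested.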

Other observations

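The following places were picked after the values were seen. In windows of 1 Mb, the median number of regions of constant width was 12, and 10 of 944 windows with any region had none. The richest window, on chromosome 3 from 23000001 to 24000000, held 37 among its 135 regions (27.4%). The longest stretch without one measured 2.09 Mb, on chromosome 5 from 5926328 to 8016054. The number of regions of any kind is not given for this stretch or for the 10 windows. Few regions of any kind can therefore not be told apart there from a lack of constant width.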
